A study of Arabidopsis thaliana with 12 samples.

Results

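Transcripts of 10 Arabidopsis thaliana genes that respond early to touch, wounding and stress were followed through the hypocotyl and upper root of 4 genotypes. The genes were taken by locus code from the 32833 loci counted, and comprised 3 C2H2 zinc-finger genes (ZAT6, AT5G04340; ZAT10, AT1G27730; ZAT12, AT5G59820), 5 WRKY genes (WRKY18, AT4G31800; WRKY33, AT2G38470; WRKY40, AT1G80840; WRKY46, AT2G46400; WRKY53, AT4G23810), the tandem CCCH zinc-finger gene SZF1 (AT3G55980) and the deadenylase gene CAF1A (AT3G44260). All 10 were found in the files, and all 10 passed the filter on low counts that left 19236 loci for testing. The genotypes were the wild type, accession Col-0; er erl2, which carries er-105 and erl2-1; pxf, which carries pxy-3 with pxl1-1 and pxl2-1; and pxf er erl2, in which all 5 alleles are combined. The ERECTA receptor kinase (ER) and its relative ERL2 belong to one receptor family, and PXY, PXL1 and PXL2 to another, which regulates the vascular cambium. Each genotype was represented by 3 libraries labelled as biological replicates, from plants grown for 3 weeks in long days, and each sample was the hypocotyl with the upper 5 mm of the root. The labels give no touch or stress treatment for any group.

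Genes of this kind are transcribed within minutes of touch, wounding, cold, oxidative stress or contact with a pathogen, and their transcripts are short-lived. ZAT proteins bind DNA through their zinc fingers and carry an EAR motif through which they repress transcription. WRKY proteins bind the W box, a short promoter element, and regulate defence and abiotic stress genes, WRKY genes among them. SZF1 belongs to a family of RNA-binding CCCH proteins, and CAF1A shortens the poly(A) tails of mRNAs as a subunit of the CCR4-NOT complex.

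The promoters were searched because the genes moved together between replicates, as described below. The window ran from 250 bases before to 50 bases after the annotated gene start in assembly TAIR10.1, and both strands were read. The W box, spelled TTGACC or TTGACT, was present in the windows of 5 of the 10 genes, against 32.4% of 27443 promoters of the same length. SZF1 held 3 matches and WRKY33 and WRKY53 held 2 each, while 7.7% of all promoters held at least 2. In ZAT6 and ZAT10 the only W box lay after the start, 33 to 38 bases past it in ZAT6 and 21 to 26 bases past it in ZAT10, and each had a G box, CACGTG, between the start and the W box. The G box was found in no other of the 10 genes and in 7.68% of all promoters. The element CGCGTT, known as the rapid stress response element that CAMTA proteins bind, was in none of the 10 windows and in 3.4% of all promoters. No match of one motif overlapped a match of another. The RefSeq sequences of the 250 bases before the start, in TAIR10.1 and read 5′ to 3′ on the strand of the gene, are given for the 3 genes with several W boxes, which are in capitals on either strand, and for ZAT12 and WRKY46, whose calls against wild type in pxf er erl2 held in every alternative fit and whose windows held no match.
WRKY33, chr2:16107985-16108234, plus strand: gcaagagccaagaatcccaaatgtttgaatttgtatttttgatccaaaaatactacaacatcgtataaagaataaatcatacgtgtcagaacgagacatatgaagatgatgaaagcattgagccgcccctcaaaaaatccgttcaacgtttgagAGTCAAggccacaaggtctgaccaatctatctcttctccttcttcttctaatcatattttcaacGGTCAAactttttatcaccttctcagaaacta
WRKY53, chr4:12393983-12394232, minus strand: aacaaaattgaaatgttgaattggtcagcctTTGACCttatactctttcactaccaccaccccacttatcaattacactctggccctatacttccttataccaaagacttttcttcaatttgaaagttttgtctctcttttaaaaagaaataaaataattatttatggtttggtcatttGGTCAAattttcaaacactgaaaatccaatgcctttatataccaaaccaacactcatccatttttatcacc
SZF1, chr3:20775970-20776219, plus strand: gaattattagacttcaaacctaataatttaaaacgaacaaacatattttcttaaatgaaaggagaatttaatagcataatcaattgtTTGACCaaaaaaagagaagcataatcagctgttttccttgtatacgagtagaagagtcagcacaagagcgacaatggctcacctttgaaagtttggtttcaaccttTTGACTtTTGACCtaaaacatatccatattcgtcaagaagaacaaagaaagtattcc
ZAT12, chr5:24102564-24102813, plus strand: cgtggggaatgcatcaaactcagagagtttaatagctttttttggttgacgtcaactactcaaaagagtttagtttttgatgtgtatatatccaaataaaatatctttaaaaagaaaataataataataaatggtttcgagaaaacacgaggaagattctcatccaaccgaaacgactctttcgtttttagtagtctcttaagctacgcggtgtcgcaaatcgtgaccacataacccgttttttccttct
WRKY46, chr2:19044956-19045205, minus strand: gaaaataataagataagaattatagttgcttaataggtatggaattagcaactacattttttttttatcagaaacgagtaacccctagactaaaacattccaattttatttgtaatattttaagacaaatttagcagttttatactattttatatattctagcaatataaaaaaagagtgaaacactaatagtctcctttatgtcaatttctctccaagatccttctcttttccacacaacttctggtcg
The 3 copies in SZF1 read forward, and the last pair of them lie a single base apart. Both copies in WRKY33 are in the reverse direction, and WRKY53 has a copy in each direction. These matches are letters in a window and not shown to be bound.

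**Figure D1:**
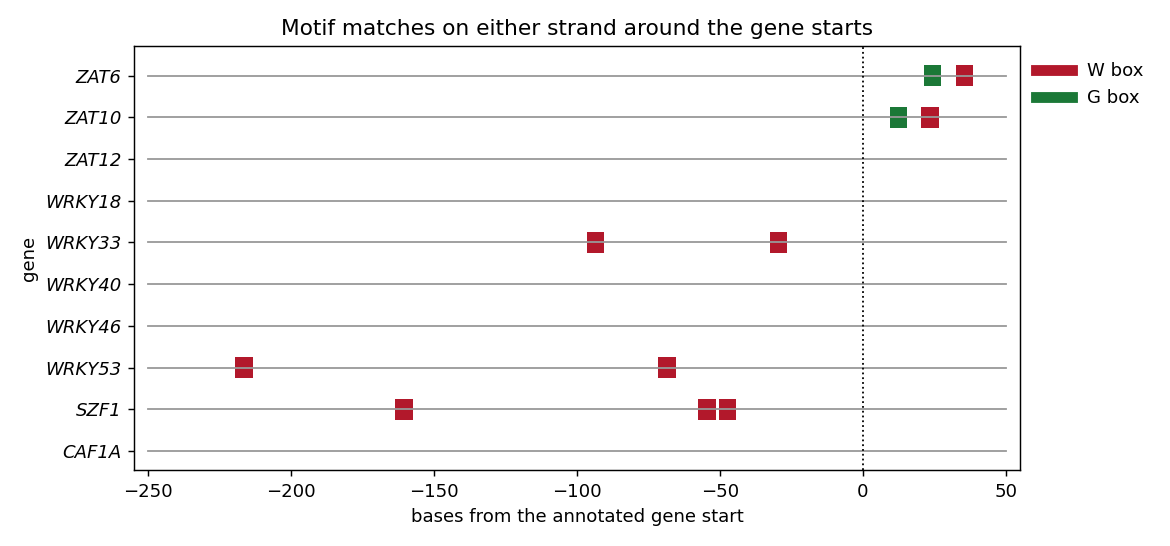
Matches of the W box (red) and the G box (green) on either strand, by distance in bases from the annotated gene start (dotted line), for the 10 genes; grey lines span the 300 bases searched. W boxes lie before the start in WRKY33, WRKY53 and SZF1 and after it in ZAT6 and ZAT10, and the other 5 genes have no match.

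Total counts ranged from 10507590 to 14716123 per library, and levels are given as CPM, counts scaled to a common library size. PXY was at 22.9 ± 2.76 CPM in pxf and 77.3 ± 5.76 CPM in pxf er erl2 against 249 ± 1.52 CPM in wild type (SD, n = 3), and ER was at 9.57 ± 1.67 CPM in er erl2 and 9.33 ± 1.83 CPM in pxf er erl2 against 38.3 ± 5.17 CPM, while PXL1, PXL2 and ERL2 had at most 14 counts in any library. PXL2 was called lower in pxf er erl2 than in wild type (0.262 ± 0.115 against 0.942 ± 0.341 CPM, adjusted p = 0.0283 by edgeR's quasi-likelihood test), and PXL1 was at 0.897 ± 0.195 CPM in pxf against 0.212 ± 0.0628 CPM. All 8 vascular markers were present. Against wild type 2 were called higher and 5 lower in pxf, and 2 higher and 4 lower in pxf er erl2. In er erl2 3 were called higher and 0 lower. The markers include PXY, itself mutated in pxf and pxf er erl2. Its lower calls there are counted, as is its higher call in er erl2. Of all tested loci 21.0% were called in pxf, 36.3% in pxf er erl2 and 18.8% in er erl2. The xylem wall gene CESA7 was at 174 ± 12.7 CPM in pxf and 201 ± 13.1 CPM in pxf er erl2 against 304 ± 52.0 CPM in wild type, and the phloem gene SEOR1 at 282 ± 27.9 and 348 ± 68.0 CPM against 124 ± 6.19 CPM. The phloem markers did not move as one. APL was at 24.3 ± 2.72 and 38.3 ± 4.58 CPM against 14 ± 0.884 CPM. SUC2 went the other way, at 37.8 ± 6.42 and 58 ± 1.09 CPM against 83.2 ± 20.4 CPM. The part of these tissue markers in the differences of the 10 genes was not tested. The root hair genes EXPA7 and COBL9 and the endodermis gene CASP1 had at most 8 counts in any library. Transcripts of leaf photosynthesis genes were present: the summed level of 6 such markers was 1470 to 2260 CPM in pxf er erl2 and 1360 to 1840 CPM in pxf, and lower, at 924 to 992 CPM, in er erl2 and at 345 to 440 CPM in wild type, although the leaf carbonic anhydrase gene BCA1 had no more than 10 counts in any library. Of 9 clock genes tested, 5 were called in pxf, 6 in pxf er erl2 and 7 in er erl2 against wild type, in both directions. The morning genes CCA1 and LHY differed in pattern: CCA1 was at 44.6 ± 3.36 CPM in er erl2, 10.2 ± 1.00 CPM in pxf and 24.3 ± 3.23 CPM in pxf er erl2 against 12.5 ± 2.70 CPM in wild type, and LHY at 76.9 ± 4.85, 23.1 ± 0.824 and 26.0 ± 1.19 CPM against 35.4 ± 1.75 CPM. The libraries of pxf replicate 3 and pxf er erl2 replicate 3 stood apart for the 10 genes. The latter also stood apart over all loci: its mean r with its group mates was 0.977, while that of every other library was 0.984 to 0.987.

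The 10 genes were well expressed. Per kilobase of exon, so that genes can be set side by side, CAF1A was the highest in wild type at 334 CPM per kb, followed by SZF1 at 203, ZAT12 at 148, ZAT10 at 117 and WRKY40 at 93.0. The remaining WRKY genes and ZAT6 were well below these, with WRKY18 at 28.3 CPM per kb, WRKY33 at 23.0, WRKY46 at 21.3, ZAT6 at 18.6 and WRKY53 at 14.5.

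ZAT12, a C2H2 repressor known for its response to hydrogen peroxide, high light and cold, was lowest in the quintuple mutant. Its level was 153, 146 and 136 CPM in wild type, 136, 138 and 113 CPM in er erl2, 124, 127 and 86.3 CPM in pxf and 71.0, 69.6 and 99.6 CPM in pxf er erl2. Every pxf er erl2 library was below every wild-type and every er erl2 library, and the pxf er erl2 and pxf libraries overlapped. ZAT12 fell by 0.86 on the log2 scale in pxf er erl2 against wild type (SE 0.17, 95% interval -1.23 to -0.49, adjusted p = 0.0024 by edgeR's quasi-likelihood test) and the log2 difference from er erl2 was -0.69 (SE 0.17, adjusted p = 0.00863). Against pxf the log2 difference was -0.49 (SE 0.17, adjusted p = 0.0924), and it was past the threshold in 4 of 20 alternative fits. These were DESeq2 and the fits that left out pxf replicate 3, pxf er erl2 replicate 3 or both. Without both it was -0.83 (adjusted p = 0.000242). Those libraries were the lowest of pxf and the highest of pxf er erl2 and were chosen for such values. A more negative difference without them was therefore built in. Neither of the calls was lost in any of 20 alternatives, over which the log2 difference ran from -1.04 to -0.77 against wild type and from -0.87 to -0.60 against er erl2. ZAT12 lies at chr5:24102814-24103794 of TAIR10.1, 621 kb from PXY, and of its 20 nearest tested loci 7 (35%) were called in pxf er erl2 against wild type; a part of DNA linked to the mutation was not tested. In RNA of whole organs, fewer cells with a transcript and less of it per cell cannot be told apart.

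ZAT10, also known as salt tolerance zinc finger, showed no difference that passed the test in any of the 7 contrasts. It was at 141, 144 and 173 CPM in wild type, 175, 144 and 129 CPM in er erl2, 140, 162 and 83.3 CPM in pxf and 125, 136 and 220 CPM in pxf er erl2. All 4 genotypes overlapped, and both the lowest and the highest value came from replicate 3 of pxf and of pxf er erl2.

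ZAT6, a relative described in phosphate and abiotic stress responses, was the most variable of the 10 genes. Its level was 16.6, 21.4 and 35 CPM in wild type, 17.1, 10.1 and 16.7 CPM in er erl2, 6.63, 16.6 and 3.92 CPM in pxf and 11.3, 14 and 30.1 CPM in pxf er erl2. The pxf libraries differed 4.24-fold among themselves and overlapped wild type only through replicate 2, whose 16.6 CPM equals the lowest wild-type value at this precision. The log2 difference of pxf from wild type was -1.42 (SE 0.56, adjusted p = 0.103), and without pxf replicate 2 it was -2.20 (adjusted p = 0.0236). Replicate 2 was the highest of pxf, so a larger fall without it was built in. In the other 19 of 20 alternatives the difference was not called.

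WRKY46 was the only one of the 10 genes called higher in a mutant than in wild type. This factor acts in basal resistance together with WRKY53 and WRKY70 and is induced by salicylic acid. It was at 26.4, 28.8 and 31.2 CPM in wild type and 35.6, 27.8 and 32.7 CPM in er erl2, against 57.4, 58.3 and 41.7 CPM in pxf and 40.3, 42.5 and 71.7 CPM in pxf er erl2. All 6 libraries with the pxf mutations were above all 6 without them. WRKY46 rose 1.82-fold in pxf against wild type (log2 0.87, SE 0.22, adjusted p = 0.0179) and 1.79-fold in pxf er erl2 against wild type (log2 0.84, SE 0.22, adjusted p = 0.0124), and it was 1.60-fold higher in pxf er erl2 than in er erl2 (log2 0.68, SE 0.22, adjusted p = 0.0318). Between pxf er erl2 and pxf the log2 difference was -0.03, with a 95% interval of -0.49 to 0.43, and without pxf replicate 3 and pxf er erl2 replicate 3 it was -0.48 (adjusted p = 0.0172). Those libraries were chosen as the lowest of pxf and the highest of pxf er erl2, so a shift in this direction was built in.

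The calls for WRKY46 did not hold equally well. That of pxf er erl2 against wild type held in all 20 alternatives, with a log2 difference of 0.53 without pxf er erl2 replicate 3. That of pxf against wild type was lost when wild type replicate 1 was left out, at a log2 difference of 0.81 (adjusted p = 0.0605), or when pxf replicate 1 was, at 0.80 (adjusted p = 0.0591). That of pxf er erl2 against er erl2 was lost in 6 alternatives, and without pxf er erl2 replicate 3 the log2 difference was 0.38 (adjusted p = 0.0622). All 5 tested leaf markers were called higher than in wild type in pxf and pxf er erl2 (median log2 2.30 and 2.66). They were also called higher in er erl2 (median log2 1.86), where the log2 difference of WRKY46 was 0.15 (adjusted p = 0.673 by edgeR's test). The summed level of the leaf markers was 924 to 992 CPM in er erl2. It was higher in pxf, at 1360 to 1840 CPM, and in pxf er erl2, at 1470 to 2260 CPM. The part of leaf RNA in the rise of WRKY46 was not tested.

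WRKY53, which promotes leaf senescence and basal resistance, had the lowest level per length in wild type. It was at 21.0, 16.5 and 28.5 CPM in wild type, 24.9, 23.1 and 24.3 CPM in er erl2, 13.6, 19.4 and 9.22 CPM in pxf and 12.6, 18.2 and 35.8 CPM in pxf er erl2. The 3 er erl2 values lay above the 3 pxf values, and the log2 difference was 0.77 (SE 0.38, adjusted p = 0.172). The exons of WRKY53 overlap those of AT4G23800 on the opposite strand over 311 bases, 20.5% of its exonic length, and that neighbour was at 46.2 to 112 CPM. Whether counting used strand is not given in the sources used here, so reads of the neighbour cannot be told apart from those of WRKY53 there. The overlaps of WRKY40 and WRKY33 with opposite-strand neighbours covered 51 bases or less.

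WRKY33, a substrate of the kinases MPK3 and MPK6 that activates camalexin genes, reached its highest level in a single library. It was at 50.1, 38.3 and 51.6 CPM in wild type, 45.6, 28.9 and 35.5 CPM in er erl2, 37.1, 41.4 and 24.9 CPM in pxf and 36.9, 48.6 and 98.4 CPM in pxf er erl2. The last value, of pxf er erl2 replicate 3, was 2.67-fold the lowest of that genotype, and no contrast passed the test. The interaction of the receptor families, the log2 effect of er erl2 among plants with the pxf mutations less its effect among plants without them, was 1.17 (95% interval 0.04 to 2.31, unadjusted p = 0.0445, adjusted p = 0.182). Without pxf er erl2 replicate 3 the WRKY33 interaction was 0.66 and the difference of pxf er erl2 from wild type went from 0.39 to -0.12.

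WRKY40 and WRKY18 encode related factors that form complexes with each other and dampen defence. WRKY40 was at 124, 101 and 144 CPM in wild type, 123, 78.0 and 87.9 CPM in er erl2, 72.3, 102 and 36.8 CPM in pxf and 46.7, 64.7 and 131 CPM in pxf er erl2. WRKY18 was at 60.9, 46.8 and 64.5 CPM in wild type, 48.4, 37.4 and 42.5 CPM in er erl2, 59.4, 51.8 and 32.9 CPM in pxf and 40.6, 46.8 and 70.2 CPM in pxf er erl2. The genotypes overlapped for both genes, and the values of WRKY40 ran over a 2.76-fold range within pxf and a 2.81-fold range within pxf er erl2. Against wild type, WRKY40 differed by -0.81 in pxf (SE 0.44, adjusted p = 0.232) and by -0.61 in pxf er erl2 (SE 0.44, adjusted p = 0.318).

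SZF1 was nearly level across the genotypes. It was at 568, 453 and 400 CPM in wild type, 558, 471 and 474 CPM in er erl2, 600, 521 and 383 CPM in pxf and 513, 505 and 522 CPM in pxf er erl2. Its log2 differences from wild type were 0.08 in er erl2 and in pxf and 0.12 in the quintuple mutant, and the 95% interval of the last was -0.23 to 0.46.

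CAF1A was lower in the quintuple mutant. It was at 483, 473 and 385 CPM in wild type, 418, 425 and 383 CPM in er erl2, 460, 424 and 325 CPM in pxf and 319, 280 and 380 CPM in pxf er erl2. Every pxf er erl2 library was below every wild-type and every er erl2 library, the closest being 380 CPM against 385 and 383 CPM. CAF1A fell by 0.45 on the log2 scale in pxf er erl2 against wild type (SE 0.14, 95% interval -0.76 to -0.14, adjusted p = 0.0258), and against er erl2 the log2 difference was -0.32 (SE 0.14, adjusted p = 0.0972). The call against wild type did not hold when replicate 1 or 2 of wild type, or replicate 1 or 2 of pxf er erl2, was left out (adjusted p from 0.0759 to 0.0997), and log2 differences over the alternatives were -0.57 to -0.35. CAF1A is on chromosome 3, which carries none of the mutated receptor genes.

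**Figure D2:**
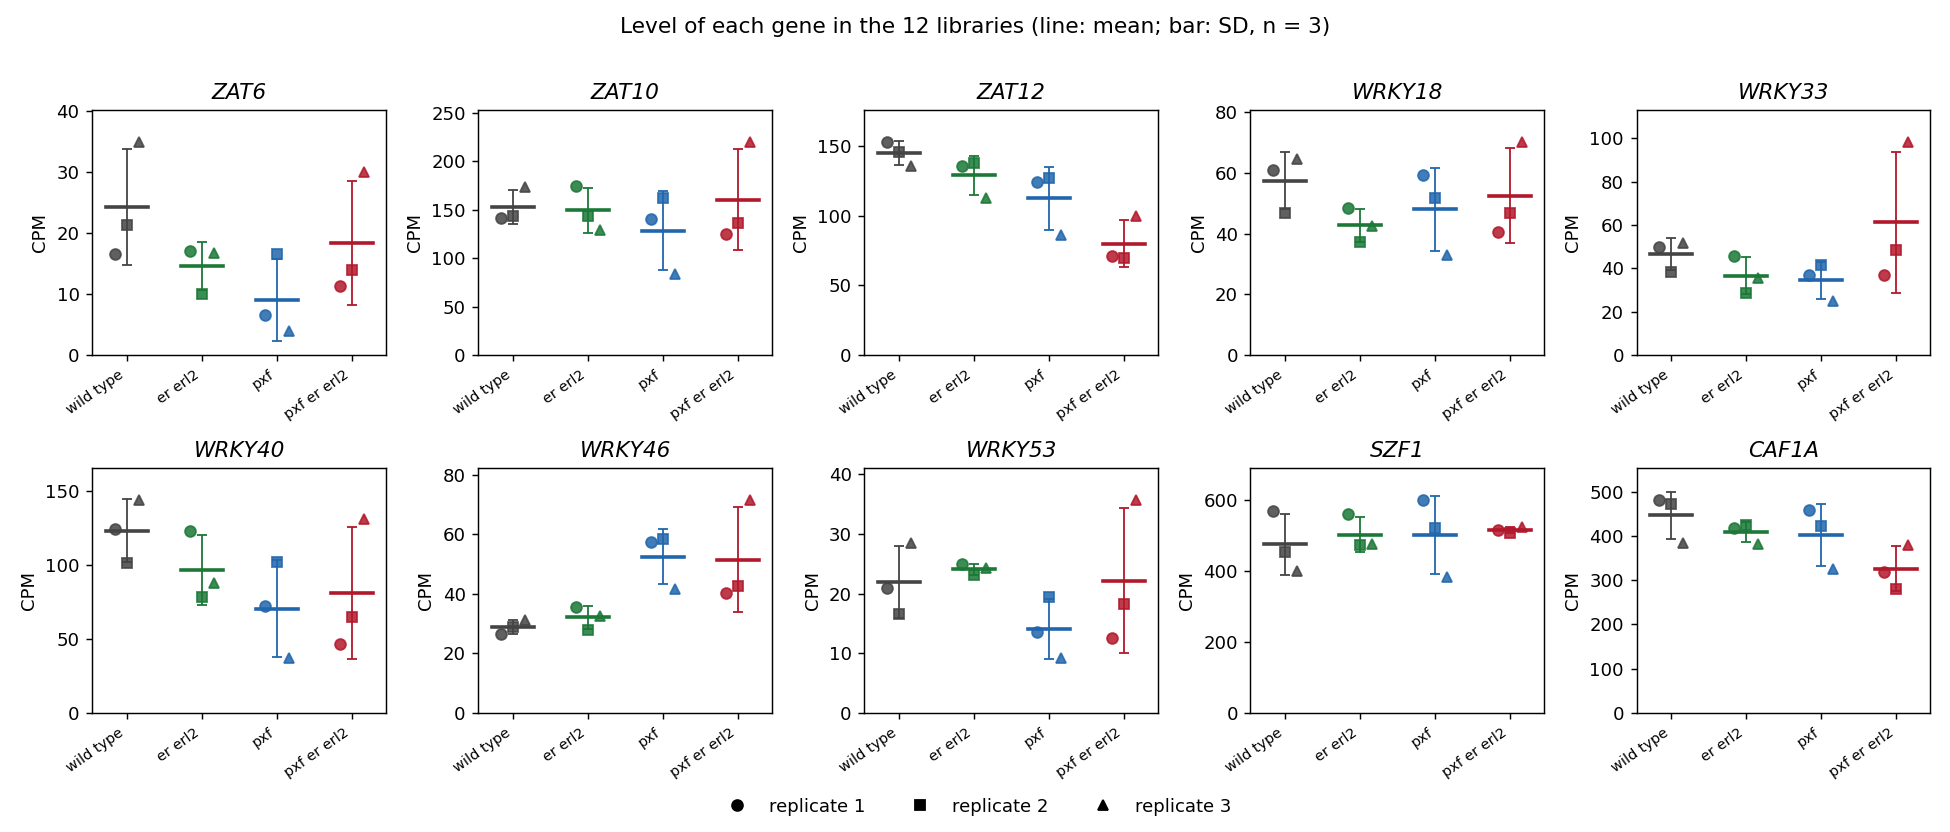
Level of each of the 10 genes in CPM, counts scaled to a common library size, in the 12 libraries by genotype; symbols mark the replicate number, lines the mean and bars the SD (n = 3). ZAT12 and CAF1A sit lowest in pxf er erl2 and WRKY46 is higher in pxf and pxf er erl2, while the triangles of replicate 3 are at the bottom of the pxf columns and at the top of the pxf er erl2 columns for all 10 genes.

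Counted by contrast, 0 to 3 of the 10 genes were called. A set of 10 genes is too small for these counts to show a departure from the shares of all tested loci. In er erl2 against wild type 0 of the 10 passed edgeR's test at an adjusted p under 0.05, where 18.8% of all tested loci did (10.3% higher, 8.44% lower), and 0 of the 10 had an unadjusted p under 0.05; DESeq2 also called 0. In pxf against wild type 1 of 10 was called (WRKY46, higher), where 21.0% of all loci were (13.0% higher, 7.97% lower). In pxf er erl2 against wild type 3 of 10 were called (WRKY46 higher, ZAT12 and CAF1A lower), where 36.3% of all loci were (19.9% higher, 16.4% lower). In pxf er erl2 against er erl2 2 of 10 were called (WRKY46 higher, ZAT12 lower), where 34.3% of all loci were (18.0% higher, 16.2% lower).

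The remaining contrasts gave 0 or 1 call each. In er erl2 against pxf 1 of 10 was called (WRKY46, lower in er erl2), where 26.3% of all loci were (12.2% higher, 14.1% lower). In pxf er erl2 against pxf edgeR called 0 of 10, with 2 at an unadjusted p under 0.05, where 10.5% of all loci were called (5.07% higher, 5.41% lower); DESeq2 called ZAT12. For the interaction edgeR called 0 of 10, with 1 at an unadjusted p under 0.05, where 9.45% of all loci were called (4.65% higher, 4.80% lower), and DESeq2 called 0. These contrasts share libraries and are not independent of one another. Counts at an unadjusted p and by DESeq2 stand without the share of all loci by the same measure, so nothing is read from them.

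Separation of the groups gave a similar picture. The libraries of the 2 genotypes did not overlap for 2 of 10 genes in pxf against wild type (40.4% of all loci, 21.9% higher and 18.5% lower), for 3 of 10 in pxf er erl2 against wild type (46.9%, 24.5% and 22.4%), for 3 of 10 in pxf er erl2 against er erl2 (46.2%, 23.6% and 22.6%) and for 2 of 10 in er erl2 against pxf (43.4%, 20.9% and 22.5%). They overlapped for all 10 genes in er erl2 against wild type, where 37.8% of all loci did not overlap, and in pxf er erl2 against pxf, where 29.3% did not (13.6% higher, 15.7% lower). For er erl2, pxf and the quintuple mutant in turn, the median log2 difference of the 10 genes from wild type was -0.15, -0.31 and -0.06, beside 0.02, 0.01 and 0 over all tested loci. The median SE was 0.26 for the 10 genes and 0.13 for all loci, so a difference of a given size was harder to detect for these genes.

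**Figure D3:**
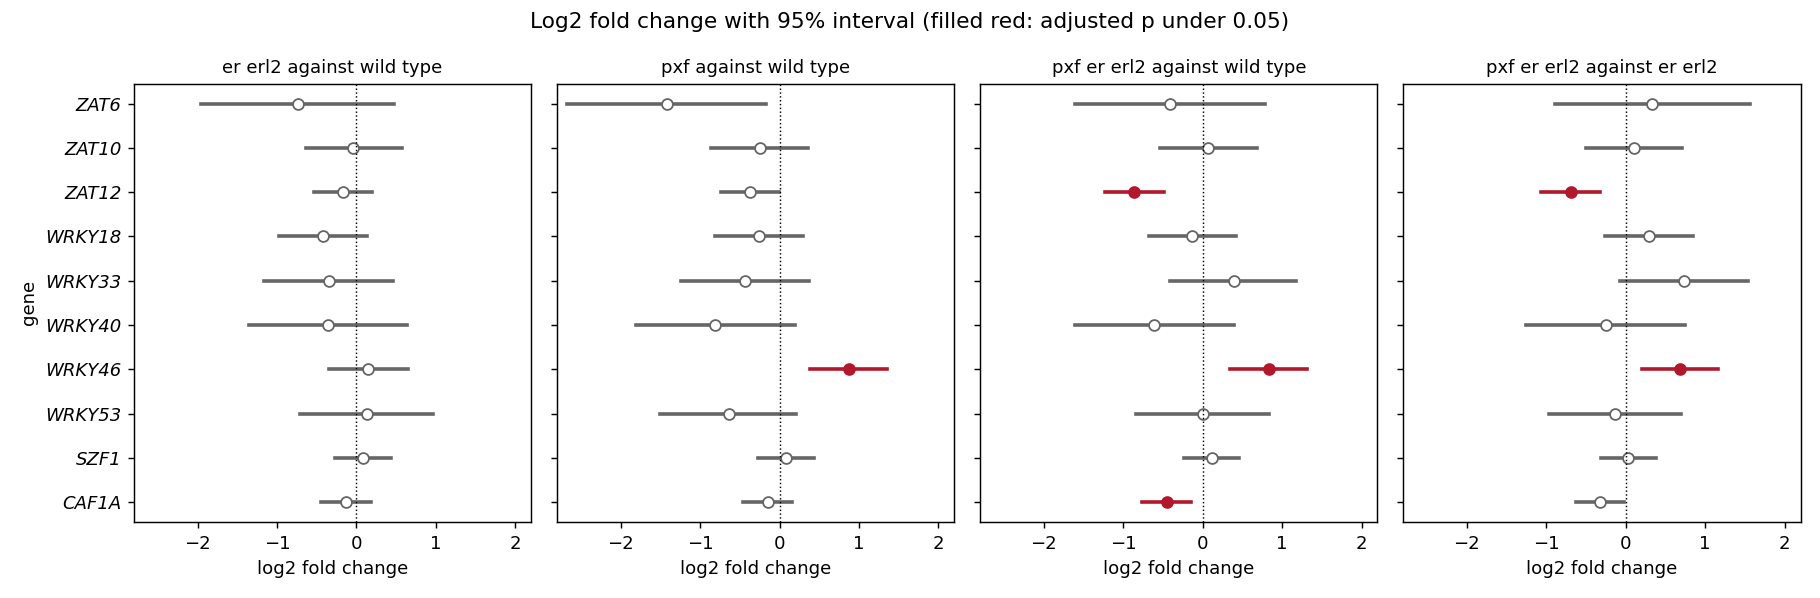
Log2 fold change of the 10 genes (points) with 95% intervals (lines) in 4 contrasts; filled red marks an adjusted p under 0.05. WRKY46 is the only filled point to the right of 0, ZAT12 and CAF1A are the filled points to the left of it, and the interval of ZAT6 is the widest.

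Replicates of one genotype differed more for these genes than for most loci. The SD of log2 CPM within genotypes had a median of 0.35 over the 10 genes and of 0.16 over all tested loci. All 10 genes were above the median of all loci, and 4 (ZAT6, WRKY40, WRKY53 and WRKY33) were above its 90th percentile of 0.44. ZAT6 had the largest SD at 0.72, followed by WRKY40 at 0.57, and CAF1A had the smallest at 0.20, still above that of 61.9% of loci. Without pxf replicate 3 and pxf er erl2 replicate 3, left out because of their values for these genes, the median SD was 0.19 for the 10 genes and 0.14 for all loci, 7 of the 10 were above the median of all loci and 1 was above its 90th percentile of 0.42. Since those libraries were chosen by these values, a smaller spread without them was built in, and no conclusion is drawn from it.

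**Figure D4:**
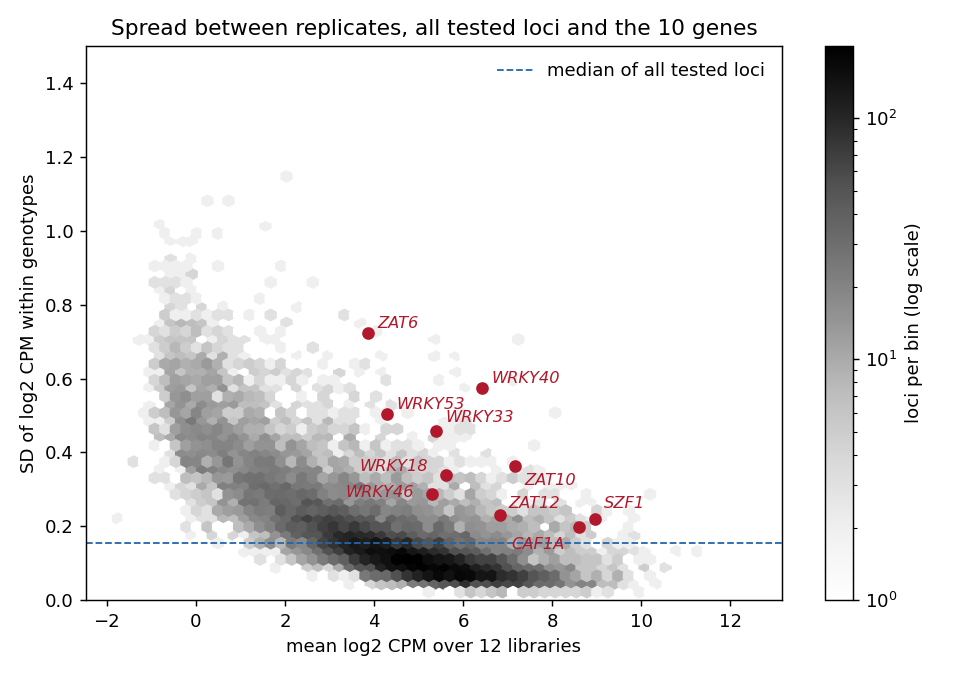
SD of log2 CPM between replicates within genotypes against mean log2 CPM over the 12 libraries, for 19236 tested loci (grey bins, log colour scale) and the 10 genes (red). All 10 red points lie above the dashed median of 0.16, with ZAT6 the highest at 0.72.

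The replicates did not vary gene by gene. In pxf, replicate 3 was the lowest of the 3 libraries for 10 of the 10 genes, while it was the lowest for 32.5% of all tested loci. In pxf er erl2, replicate 3 was the highest for 10 of the 10 genes, while it was the highest for 40.4% and the lowest for 38.6% of all loci. The mean deviation of the 10 genes from their genotype means was -0.51 on the log2 scale in pxf replicate 3 and 0.54 in pxf er erl2 replicate 3. Deviations in pxf er erl2 replicate 3 ran from 0.02 for SZF1 to 0.84 for WRKY40, and those in pxf replicate 3 from -0.92 for ZAT6 to -0.30 for CAF1A.

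The other genotypes were less uniform. Replicate 1 of er erl2 was the highest for 8 of 10 genes, while it was the highest for 32.2% of all tested loci. In wild type the genes split. Replicate 3 was the highest for 7 (33.6% of all loci) and the lowest for the remaining 3 (38.7% of all loci), which were ZAT12, SZF1 and CAF1A. Replicate numbers name libraries and have no order. The leaf markers moved the other way in the libraries that stood apart: all 5 tested markers were above their genotype mean in pxf replicate 3 (mean deviation 0.32) and below it in pxf er erl2 replicate 3 (mean deviation -0.30). Their part in the spread of the 10 genes was not tested.

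**Figure D5:**
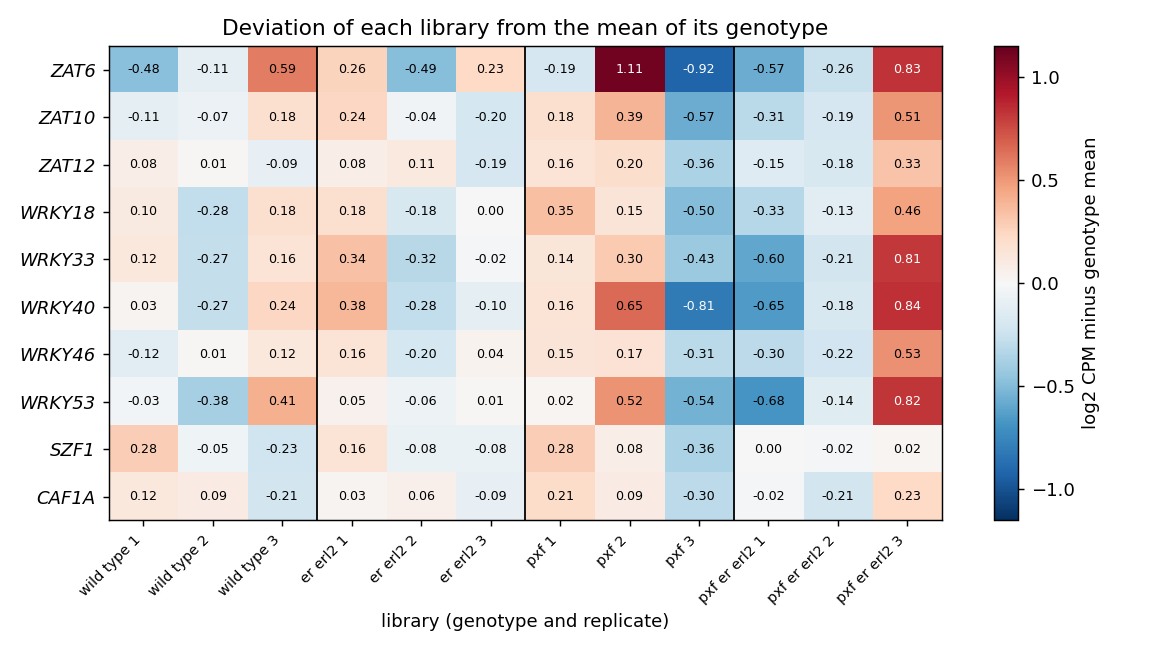
Deviation of log2 CPM of each of the 10 genes from the mean of its genotype, in the 12 libraries (colour scale and printed values; vertical lines separate genotypes). The column of pxf 3 is blue for all 10 genes, from -0.92 to -0.30, and that of pxf er erl2 3 is red for all 10, from 0.02 to 0.84.

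Across the 12 libraries the deviations of the genes correlated with each other. Over the 45 pairs of genes Pearson's r had a median of 0.79, 28 pairs were over 0.7 and none was below 0. The closest pair was ZAT10 with WRKY40 (r = 0.96) and the loosest was ZAT6 with SZF1 (r = 0.16), and the correlations of SZF1 with WRKY46 (0.32) and of CAF1A with ZAT6 (0.32) were also low. SZF1 and CAF1A, both of which act on mRNA, correlated with each other at 0.76, and CAF1A with ZAT12 at 0.90. Without pxf replicate 3 and pxf er erl2 replicate 3 the median over the 45 pairs was 0.40 in the remaining 10 libraries. There 7 pairs were over 0.7 and 17 below 0. The libraries left out were chosen for their values of these genes, so weaker correlation without them was partly built in. The libraries of a genotype share its mean, and the values are descriptive.

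Other genes followed the 10 closely. Of 15272 loci with at least 5 CPM on average, 148 (0.969%) had an r over 0.9 with the mean deviation of the 10 genes. The nearest was MYB15 (r = 0.994, Spearman's rho = 0.993), a MYB factor of cold and defence responses. ERS1, an ethylene receptor (r = 0.983), ERF11, an ethylene response factor (r = 0.982), CPK28, a calcium-dependent protein kinase that tunes immune signalling (r = 0.980), and AT2G26380 (Spearman's rho = 0.958) came next. In the 10 libraries without the pair that stood apart, r was 0.967 for MYB15, 0.952 for ERS1, 0.896 for ERF11, 0.888 for CPK28 and 0.878 for AT2G26380.

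Taken singly, the 10 genes had different nearest loci. WRKY40 was nearest to MYB15 (r = 0.985) and WRKY33 to the touch gene TCH3, which encodes a calmodulin-like protein (r = 0.991). WRKY18 was nearest to the receptor kinase gene PR5K (r = 0.989), ZAT6 to SULTR3;4 (r = 0.968) and WRKY53 to AAE12 (r = 0.989). The nearest loci of the others are known here by locus code only: AT2G32140 for ZAT10, AT3G56820 for ZAT12, AT2G45500 for WRKY46, AT4G29780 for SZF1 and AT4G27652 for CAF1A, with r from 0.964 to 0.992.

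Related genes of the touch and stress response partly shared the pattern of the replicates. Of 8 jasmonate wound genes 0 were above their genotype mean in pxf replicate 3 (mean deviation -0.77) and 8 were above it in pxf er erl2 replicate 3 (mean deviation 0.32). Of 7 touch and calcium genes tested the counts were 0 and 6 (mean deviations -0.35 and 0.26), and of 12 early ERF and CBF genes they were 1 and 8 (-0.37 and 0.16). Of 53 other WRKY genes, 25 were above their mean in pxf replicate 3 and 33 in pxf er erl2 replicate 3, with mean deviations of -0.04 and 0.15. The 7 other CAF1 genes tested were split in both libraries (4 and 3 above the mean). Of 7 other ZAT-type genes the counts were 1 and 5 (-0.44 and 0.15). Of 12 kinases and upstream regulators they were 1 and 11 (-0.19 and 0.23), and of 10 salicylic acid genes 3 and 8 (-0.18 and 0.58). The 4 other CCCH genes (3 and 2, 0.08 and -0.06) and 6 WRKY33 target genes (3 and 5, 0.23 and 0.39) were on average above their mean in pxf replicate 3. Over all tested loci the median deviations were 0.01 and 0.

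Calls among related genes are to be read against the shares of all tested loci called against wild type, which were 36.3% in pxf er erl2, 21.0% in pxf and 18.8% in er erl2. Lists of 4 to 12 genes can show only a large departure from them. Of 53 other WRKY genes tested, 4 rose and 8 fell in er erl2 against wild type, 13 rose and 7 fell in pxf, and 18 rose and 6 fell in pxf er erl2. WRKY12, which restrains secondary walls in pith, was at 2.97 ± 0.509 CPM in pxf er erl2 against 15.5 ± 2.60 CPM in wild type and 22.2 ± 4.06 CPM in er erl2 (SD, n = 3), and fell by 2.37 on the log2 scale against wild type (adjusted p = 1.62e-06). TTR1, an immune receptor gene with a WRKY domain, was at 22.3 ± 1.48 CPM in er erl2 against 42.6 ± 1.87 CPM in wild type, and fell by 0.93 (adjusted p = 1.13e-06). WRKY38, a repressor of basal defence, was at 3.93 ± 0.752 CPM in er erl2 against 10.9 ± 0.500 CPM in pxf er erl2, where it was higher by 1.47 (adjusted p = 3e-05).

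Of 7 other ZAT-type genes tested, 0 rose and 1 fell in er erl2 against wild type, 0 rose and 2 fell in pxf, and 0 rose and 2 fell in pxf er erl2. AZF3 was at 3.24 ± 0.910 CPM in er erl2 against 8.53 ± 0.907 CPM in wild type and fell by 1.39 (adjusted p = 0.000446). AT3G46080, a zinc-finger gene next to its relative ZAT7, was at 14.9 ± 2.56 CPM in pxf er erl2 against 48.1 ± 4.58 CPM in wild type and fell by 1.69 (adjusted p = 3.29e-05). ZAT7 was at 5.73 ± 0.787 CPM against 17.5 ± 5.41 CPM and fell by 1.61 (adjusted p = 0.00199); reads of these adjacent and similar genes may have been divided between them. Both were also the genes that fell in pxf against wild type by edgeR's test. AT3G46080 fell by 0.97 there (adjusted p = 0.00264) and ZAT7 by 1.23 (adjusted p = 0.0138, lost in 2 alternatives). ZAT12 was called lower in pxf er erl2 as well, but not in pxf (log2 -0.37, adjusted p = 0.138).

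Of 4 other CCCH genes tested 1 rose in pxf er erl2 against wild type (TZF1, 25.8 ± 9.06 against 12.8 ± 2.91 CPM, log2 1.02, adjusted p = 0.0201, lost in 4 alternatives, 165 kb from the mutated ER) and 0 passed in er erl2 or pxf. Of 7 other CAF1 genes tested 1 fell in pxf er erl2 (AT2G32070, log2 -0.18, adjusted p = 0.0412, lost in 11 alternatives), and 0 passed in er erl2 or pxf.

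Of 7 touch and calcium genes tested, 1 rose in er erl2 (the calmodulin gene CAM2, by 0.41, adjusted p = 0.00829), 0 passed in pxf, and 1 fell in pxf er erl2 (CML23, a calmodulin-like gene, at 50.5 ± 2.89 against 68.4 ± 7.08 CPM, log2 -0.44, adjusted p = 0.00504). TCH2, TCH3 and TCH4, the genes named for touch, passed in none of these 3 contrasts. Against pxf, however, TCH2 was called lower by edgeR's test in both other mutants. It was at 229 ± 12.4 CPM in pxf er erl2 against 301 ± 34.5 CPM in pxf (log2 -0.39, adjusted p = 0.0174, lost in 2 alternatives). In er erl2 it was at 243 ± 6.84 CPM (log2 -0.31, adjusted p = 0.0256, lost in 4).

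Of 12 early ERF and CBF genes tested, 0 passed in er erl2 against wild type, 2 rose and 1 fell in pxf, and 2 rose and 0 fell in pxf er erl2. CBF3, an activator of cold-response genes that ZAT12 is known to influence, was at 28.1 ± 4.63 CPM in pxf and 24.1 ± 5.25 CPM in pxf er erl2 against 12 ± 2.93 CPM in wild type, and rose by 1.23 (adjusted p = 0.00324) and 1.01 (adjusted p = 0.00501). CBF3 stands in a row with CBF1 and CBF2, and shared reads may have been divided. The other gene that rose in both, ERF104, lies 38.1 kb from the mutated PXY, and the part of linked DNA in its rise cannot be told apart.

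Of 6 genes that WRKY33 is known to regulate, 0 passed in er erl2 against wild type, 1 fell in pxf, and 2 rose in pxf er erl2. CYP81F2, an indole glucosinolate enzyme, was at 12.8 ± 1.97 CPM in pxf er erl2 against 5.69 ± 1.58 CPM in pxf and 5.05 ± 0.846 CPM in wild type, and rose by 1.34 against wild type (adjusted p = 0.000873) and by 1.17 against pxf (adjusted p = 0.00641). CYP71A12 was at 15.6 ± 6.71 CPM against 5.15 ± 1.85 CPM in wild type and rose by 1.59 (adjusted p = 0.00348), and CYP71A13, a near-identical copy whose reads may be shared with it, fell in pxf at an adjusted p of 0.0497, lost in 12 alternatives. Over the same contrasts WRKY33 itself differed from wild type by -0.35, -0.44 and 0.39 in er erl2, pxf and pxf er erl2, with adjusted p-values from 0.427 to 0.548.

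Among the kinases and other upstream regulators, 1 of 12 fell in er erl2 against wild type, 1 in pxf and 3 in pxf er erl2, and 0 rose. CAMTA3, a calmodulin-binding factor, was at 64.8 ± 0.991 CPM in er erl2 and 63.5 ± 4.37 CPM in pxf against 80.8 ± 7.23 CPM in wild type, with log2 differences of -0.32 (adjusted p = 0.0114) and -0.35 (adjusted p = 0.00656). MKK4, a kinase upstream of MPK3 and MPK6, was at 48.0 ± 8.31 CPM in pxf er erl2 against 69.5 ± 3.18 CPM in wild type and fell by 0.53 (adjusted p = 0.00605).

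Hormone-related genes were mixed. Of 10 salicylic acid genes tested, 2 rose and 1 fell in er erl2 against wild type, 2 rose and 0 fell in pxf, and 1 rose and 1 fell in pxf er erl2. NIMIN1, which binds the salicylic acid receptor NPR1, had 10.1 ± 1.91 CPM in er erl2 against a wild-type level of 4.02 ± 0.892 CPM and rose by 1.33 in er erl2 against wild type (adjusted p = 0.000748). Both calls in pxf, NIMIN1 (adjusted p = 0.0483) and EDS1 (adjusted p = 0.0456), were lost in 14 of 20 alternatives, and the lower call of SARD1 in er erl2 (adjusted p = 0.0236) was lost in 4. Of 8 jasmonate wound genes, 0 passed in er erl2, 1 rose in pxf and 1 rose in pxf er erl2, in both the storage protein gene VSP2, which was at 2070 ± 270 CPM in pxf er erl2 against 893 ± 228 CPM in wild type (log2 1.22, adjusted p = 0.00107); the call in pxf (log2 0.75, adjusted p = 0.0257) was lost in 5 alternatives.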

How the data were processed

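Poly-A RNA of 12 samples, 3 per genotype, was sequenced from libraries made with a NEBNext Ultra kit, per the labels' protocols. What the authors deposited were unnormalized gene counts, with each library in a file of its own; HISAT2 2.0.5, featureCounts 1.5.0-p3 and build TAIR10 are named in the submitters' processing notes. The annotation release and the strand setting are not given in the sources used here. Groups and replicate numbers came from the sample titles. Nothing states that replicates came from separate plants beyond the label of biological replicate, so p-values measure the spread between these samples. No pair of replicates was alike within sampling noise (chi-square per degree of freedom 3.31 to 18.9).

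The tests used edgeR 4.0.16 (R 4.3.3): filterByExpr, TMM (factors 0.985 to 1.011), a robust quasi-likelihood fit with a term per genotype over all 12 libraries, and F-tests of 6 pairwise contrasts and the interaction, with Benjamini-Hochberg adjustment over 19236 loci; a gene was called at an adjusted p under 0.05. DESeq2 1.42.0, other scalings and filters, the compared groups alone, a replicate block and each library left out were alternatives. CPM are TMM-scaled. Deviations are log2 CPM (prior count 2) minus the genotype mean. The procedure was tested on simulated data. The 10 genes and all lists were chosen with earlier results of these data known, the lists from general knowledge. Named are all 10 genes, at most 3 called genes per list and contrast in order of size, the 5 loci nearest to the mean of the 10, and the nearest locus of each. Positions and promoters were read from TAIR10.1 by locus code.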

Additional observations from a re-analysis of the deposited data

Results flagged for a closer look

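None of the 10 genes differed in its response between backgrounds by the test of the interaction. Over all tested loci 9.45% were called for the interaction, and of 53 other WRKY genes 8 were. Of the related genes, for which at most 3 called genes a list are named, 10 are given, so their number follows from that choice: the log2 effect of er erl2 among plants with the pxf mutations less its effect among plants without them was 1.55 for AZF3 (edgeR's quasi-likelihood test, adjusted p = 0.00384), -0.82 for CML23 (adjusted p = 0.0034), 0.44 for CAMTA3 (adjusted p = 0.0235), 1.65 for CYP81F2 (adjusted p = 0.0117), -2.34 for NIMIN1 (adjusted p = 0.000364) and -0.43 for EDS1 (adjusted p = 0.0123). It was -0.95 for the clock gene LHY (adjusted p = 7.02e-05), -1.56 for WRKY12 (adjusted p = 0.00192), -1.22 for WRKY54 (adjusted p = 0.033) and 0.96 for TTR1 (adjusted p = 4.35e-05).

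AZF3 was lowest in er erl2, at 3.24 ± 0.910 CPM against 8.53 ± 0.907 CPM in wild type (SD, n = 3). NIMIN1 was at 10.1 ± 1.91 CPM with er erl2 alone and at 4.02 ± 0.892 CPM in wild type, but at 3.09 ± 0.484 CPM in the quintuple mutant and at 6.27 ± 1.00 CPM in pxf. CYP81F2 was highest in the quintuple mutant, at 12.8 ± 1.97 CPM against 5.69 ± 1.58 CPM in pxf. The interactions of CAMTA3 and WRKY54 were lost in 4 and 8 of the alternatives, and the other 8 in none.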

How the results depend on the processing

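Of 1390 values of the 10 genes under alternatives, 1357 kept their side of the threshold, 18 lost a call and 15 gained one; no called value changed sign, and 67 uncalled ones did. The number of the 10 genes called was 1 in pxf er erl2 against pxf with DESeq2; 1 in pxf er erl2 against er erl2 without a filter and with the compared groups alone; and 0 in er erl2 against pxf without a filter. Leaving out each library in turn gave 0 to 1 in er erl2 against pxf and in pxf er erl2 against pxf, 0 to 2 in pxf against wild type, 1 to 3 in pxf er erl2 against er erl2 and 2 to 3 in pxf er erl2 against wild type; er erl2 against wild type and the interaction stayed at 0. Same-numbered libraries did not deviate together (r from -0.37 to 0.27, over 0.1 in 5 of 18 pairs), and a replicate block gave 1 in pxf er erl2 against er erl2 and 0 in er erl2 against pxf, with no other count moved. Over all loci, calls fell from 4041 to 2497 in pxf against wild type without pxf replicate 3, from 2016 to 1192 in pxf er erl2 against pxf without pxf er erl2 replicate 1, and from 1818 to 1119 for the interaction without pxf replicate 1. At most they were 4729, 2244 and 2139 in the alternatives. For pxf er erl2 they ran from 5332 to 7465 against wild type and from 5283 to 6693 against er erl2. For er erl2 they ran from 2578 to 4270 against wild type and from 3860 to 5621 against pxf. Counts of the 10 genes under alternatives are to be read beside these ranges.

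Leaving out pxf replicate 3 and pxf er erl2 replicate 3 together was chosen after seeing the data, and since both were chosen for their values of these genes, the smaller spread is built in. The direction is built in too. These were the lowest pxf and the highest pxf er erl2 library for all 10 genes. Leaving them out lowers pxf er erl2 and raises pxf, so no conclusion is drawn from these calls. That fit gave 1 call in er erl2 against wild type (WRKY18), 3 in pxf er erl2 against pxf (ZAT12, WRKY46 and CAF1A, all lower) and 2 for the interaction (ZAT12 and WRKY46). WRKY40 was then also called lower in pxf er erl2 against wild type (log2 -1.14, adjusted p = 0.0149), and CAF1A in pxf er erl2 against er erl2 (log2 -0.44, adjusted p = 0.00493), which took these contrasts to 4 and 3 calls. Depth was not limiting, with 51 counts in the lowest library for ZAT6.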
